A study of Xenopus laevis with 3 samples.

Results

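Connexins are the proteins of gap junctions, and their genes were read on Affymetrix arrays from the larval inner ear of Xenopus laevis. A probe set was taken as a connexin probe set when its single gene symbol in the platform annotation, without the suffix of the gene copy, began with gja, gjb, gjc, gjd or gje followed by a digit. This rule uses names and no measured value. It found 6 gene copies of 11303 gene symbols that have a probe set of their own, measured by 9 of 32475 frog probe sets. The copies are gjb2.L, gjb7.S, gja1.L, gja4.S, gjc1.L and gja7.S, where .L and .S mark the 2 subgenomes of this tetraploid frog. Total RNA came from inner ears of larvae bought from a commercial supplier at stages 56 to 58, aged 38 to 44 days after fertilization, with no treatment named in the labels. Replicates 1, 2 and 3 are separate pools of 10, 7 and 8 animals on 1 array each, and all 3 belong to a single condition. These animal numbers are those of the sample labels, and the 7 of replicate 2 lies below the range per sample in the study's methods. Each value is a GCRMA value, the log2 intensity of a probe set after the authors' background correction and their normalization of the arrays to each other.

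In a gap junction, 6 connexins form a hemichannel in each of 2 neighbouring cells, and the docked hemichannels let ions and small molecules pass from cell to cell. In the inner ear of mammals such junctions couple the supporting cells around the hair cells and the fibrocytes of the connective tissue, while mature hair cells have few or none. They are held to serve the return of potassium from the hair cells to the endolymph, and variants of the human gene GJB2 are a common cause of inherited deafness. Genes of the gja, gjb, gjc, gjd and gje classes differ in the length of the cytoplasmic loop and tail of the protein and in the partners with which their channels dock.

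Part of the family is described here. In the RefSeq gene table of assembly v10.1, 32 gene copies of 19 connexin symbols are named by the same rule, and 6 of these copies were matched to a probe set. Counted by symbol alone, these are 3 of 14 gja copies, with gja7.S among them, 2 of 11 gjb copies and 1 of 3 gjc copies. The 26 other copies, among them gjb2.S, gja1.S, gjb1.L, the 3 gjd copies and the gje copy, were not analysed here. The gene identifiers of all 6 measured copies were found in the RefSeq table. That table gives gjc1 as a synonym of gja7.S, and within 8 genes on each side gjc1.L and gja7.S share the neighbours acmsd, chpf and tmem163. In the same window the L and S copies of gja1, gjb7, gjb2 and gja4 share 3, 7, 9 and 12 named neighbours. Because of the synonym and the shared neighbours, gjc1.L and gja7.S are described next to each other. Whether they are the L and S copies of 1 gene was not settled from sequence.

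The connexin genes gjb2.L, gja1.L and gja7.S were detected in the larval inner ear by all of their probe sets. The gene gjc1.L was detected by 1 of its probe sets and not by the other. The single probe sets of gja4.S and gjb7.S did not detect these genes. Detection means a mean above 4, the GCRMA value that the study uses as its expression threshold, by limma's one-sided test, with p adjusted across all frog probe sets and a limit of 0.05. Of the 9 connexin probe sets 6 were called (66.7%), as against 63.1% of all frog probe sets. Among frog probe sets with 1 gene symbol, as the rule requires of connexins, 71.8% were called. The share of connexin probe sets lies between these backgrounds and near both. The same 6 had a mean of 4 or higher, which 64.8% of all frog probe sets and 73.2% of those with 1 gene symbol reached. No connexin probe set had arrays on both sides of 4, so each array taken alone gives the same split. The median of the 9 means was 11.13, the mean of a gjc1.L probe set, beside 7.51 over all frog probe sets, with or without a symbol. Intensities depend on the probes, so these medians do not compare transcript amounts.

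**Figure D1:**
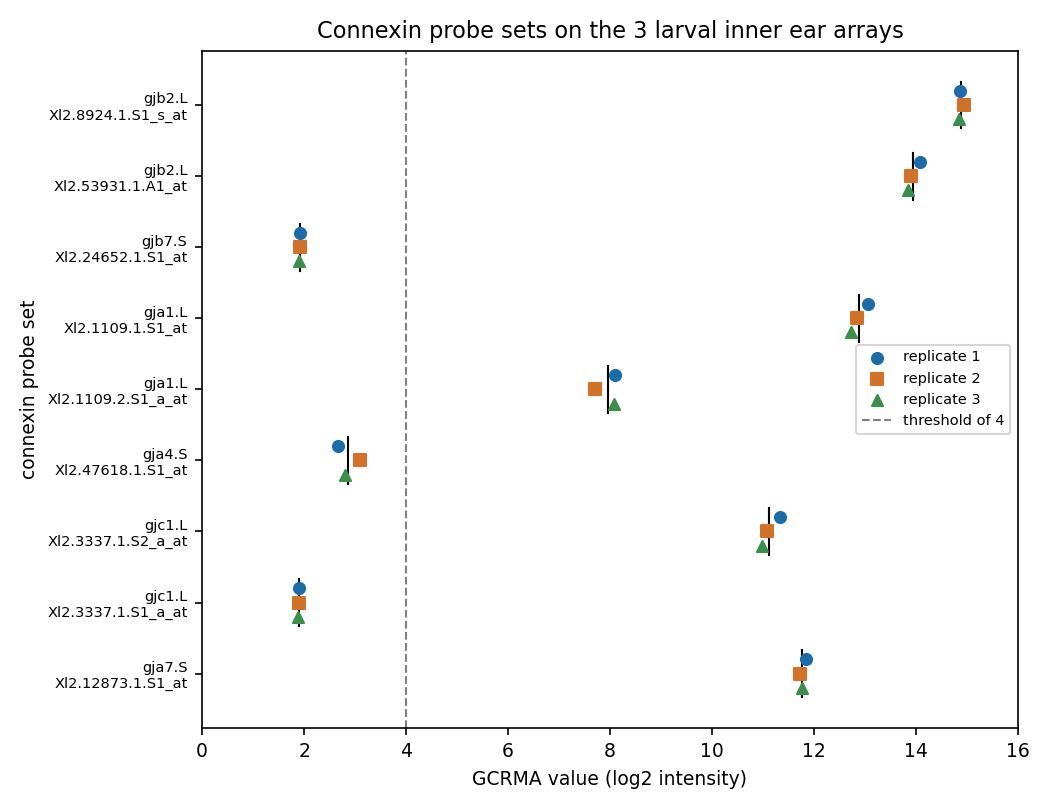
GCRMA values (log2 intensity) of the 9 connexin probe sets on the horizontal axis, with a symbol for each of the 3 arrays, a vertical bar at the mean of the arrays and a dashed line at the threshold of 4. The 6 called probe sets have means between 7.96 and 14.88 on the right of the line, and the other 3 have means between 1.89 and 2.86 on its left.

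Among the beta connexins, gjb2.L was measured by 2 probe sets, both far above the threshold on every array. The gene encodes connexin-26, which in mammals is the main connexin of cochlear supporting cells together with the product of GJB6. Probe set Xl2.8924.1.S1_s_at had 14.87, 14.94 and 14.84 in replicates 1, 2 and 3. The arrays lay within 1.07-fold of each other, and the mean was 14.88 ± 0.05 (SD, n = 3), with a 95% confidence interval of 14.77 to 14.995 and an adjusted p of 1.16e-07 from limma. The ending _s_at marks a probe set whose probes match several transcripts, so its signal can include related sequences. Probe set Xl2.53931.1.A1_at had 14.08, 13.90 and 13.85 in replicates 1, 2 and 3, with replicate 1 above the others. Its mean was 13.94 ± 0.12 (SD, n = 3; limma's adjusted p = 1.43e-07). In the RefSeq table gjb2.L lies between cryl1.L and gja3.L, another connexin gene, which was not analysed here.

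The other beta connexin, gjb7.S, stayed at the floor of the arrays. Its probe set Xl2.24652.1.S1_at had 1.91, 1.92 and 1.91 in replicates 1, 2 and 3, and their mean was 1.91 ± 0.0047 (SD, n = 3) with a limma adjusted p of 1. Among the 11444 frog probe sets with a mean under 4 the quartiles of the mean were 1.93, 2.02 and 2.24, so this value lies below the lower quartile of the undetected probe sets. At such values the array shows that transcript was not detectable by these probes, not that it was absent.

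Among the alpha connexins, gja1.L was detected by both of its probe sets. It encodes connexin43, the most widely expressed connexin of vertebrates, found in connective tissue, bone, glia and vessel walls as well as in epithelia. Probe set Xl2.1109.1.S1_at had 13.05, 12.84 and 12.73 in replicates 1, 2 and 3, and their mean was 12.88 ± 0.16 (SD, n = 3; limma's adjusted p = 2.64e-07). Probe set Xl2.1109.2.S1_a_at, whose ending _a_at marks probes shared by alternative transcripts of 1 gene, had 8.11, 7.71 and 8.07. Its mean was 7.96 ± 0.22 (SD, n = 3; limma's adjusted p = 1.45e-05), and replicate 2 was the lowest array here, while replicate 3 was the lowest for the first probe set. Intensities of different probe sets depend on their probes, so the gap between these means is no measure of transcript amounts.

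The alpha connexin gja4.S, whose mammalian counterpart is a connexin of endothelial cells and of the oocyte and its follicle, was not called. Its probe set Xl2.47618.1.S1_at had 2.67, 3.09 and 2.81 in replicates 1, 2 and 3, with all 3 arrays under 4. The mean was 2.86 ± 0.21 (SD, n = 3), with a 95% confidence interval of 2.60 to 3.11 that lies below the threshold (limma's adjusted p = 1). This mean lay above the upper quartile of 2.24 among undetected probe sets, and its SD was above their upper quartile of 0.055. Of the 6 endothelial markers 2 had a probe set, and both were detected. The adhesion protein gene pecam1.L had 7.51, 7.29 and 7.14 in replicates 1, 2 and 3, and tek.S, the angiopoietin receptor, had 8.60, 8.30 and 7.89. The call of gja4.S rests on a single probe set, and gja4.L was not analysed here. As for gjb7.S, transcript was not detectable by these probes, which does not show that it was absent. Whether endothelium of the ear expresses gja4 was not tested. In the RefSeq table gja4.S is a neighbour of cx38.S.

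The gamma connexin gjc1.L was detected by 1 of its 2 probe sets, so the call of this gene depends on the probe set. In mammals GJC1 encodes a connexin of smooth muscle, the heart's conduction system and neurons. Probe set Xl2.3337.1.S2_a_at had 11.33, 11.07 and 10.99 in replicates 1, 2 and 3, and their mean was 11.13 ± 0.18 (SD, n = 3; limma's adjusted p = 5.69e-07). Probe set Xl2.3337.1.S1_a_at had 1.89, 1.89 and 1.89, a mean of 1.89 ± 0.0047 (SD, n = 3; limma's adjusted p = 1). Each of the 3 arrays showed the same opposite calls. Both probe sets bear the ending of probes shared by alternative transcripts.

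The connexin annotated as gja7.S, with gjc1 among its synonyms, was detected on every array. Its only probe set, Xl2.12873.1.S1_at, had 11.84, 11.73 and 11.76 in replicates 1, 2 and 3. The mean was 11.77 ± 0.06 (SD, n = 3), with a 95% confidence interval of 11.65 to 11.89 (limma's adjusted p = 1.23e-07). Of the 3 probe sets annotated as gjc1.L or gja7.S, the other gjc1.L probe set at 1.89 was the one not called. Whether each probe set reads its own gene alone was not tested.

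A pair of further frog connexin genes is known to RefSeq under other symbols and falls outside the naming rule. cx38.S, the connexin of the Xenopus oocyte and early embryo, had 1.94, 1.95 and 1.94 in replicates 1, 2 and 3 (mean 1.94 ± 0.0072, SD, n = 3). MGC69466.L, which lists gja3 among its synonyms, had 1.99, 1.99 and 1.98 (mean 1.99 ± 0.0092, SD, n = 3). Neither was detected, with a limma adjusted p of 1 for each.

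The spread of the connexin signals between the 3 pools of animals lay near that of other probe sets. These other probe sets were not matched to the connexin probe sets by mean intensity. Over the 6 called probe sets the SD between arrays was 0.05 to 0.22, with a median of 0.14, beside a median of 0.16 over the 21031 frog probe sets whose mean reached 4. The highest array exceeded the lowest by 1.07-fold to 1.32-fold, beside a median of 1.23-fold over those frog probe sets. Replicate 1 was the highest array for 5 of the 6 called probe sets, the exception being Xl2.8924.1.S1_s_at of gjb2.L, whose highest array was replicate 2. Over all frog probe sets whose mean reached 4, replicate 1 was highest for 31.2%, and with 1 array a pool this order has no test. Replicate 3 was the lowest array for 4 of the 6 and replicate 2 for the other 2, gja7.S and the second probe set of gja1.L. The share of all frog probe sets lowest on each array is not given here.

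**Figure D2:**
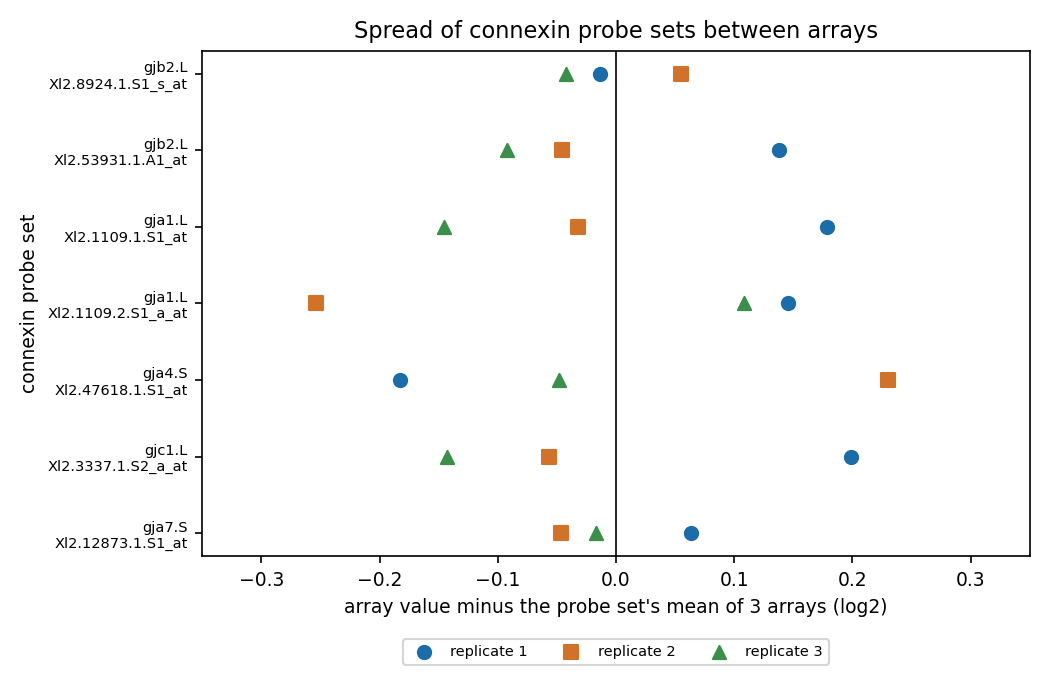
Difference of each array from the mean of its probe set (log2 units, horizontal axis) for the 6 called connexin probe sets and gja4.S, with a symbol for each replicate. Replicate 1 stands highest in 5 of the 6 called probe sets, and the point farthest from 0, replicate 2 of the second gja1.L probe set, lies at a distance of 0.25.

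**Figure D3:**
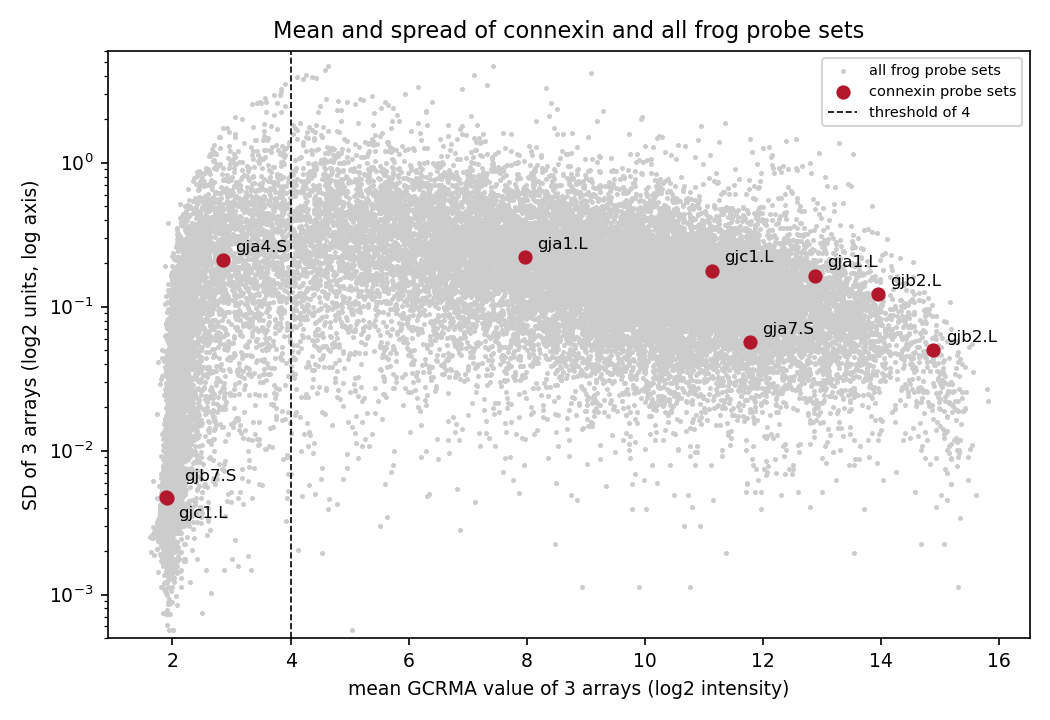
SD of the 3 arrays (log2 units, log axis) against their mean GCRMA value for all frog probe sets in grey and the 9 connexin probe sets in red, with a dashed line at 4. The called connexin probe sets lie within the grey cloud at SDs of 0.05 to 0.22, and gjb7.S and the lower probe set of gjc1.L share the floor at the left. The 8 frog probe sets with an SD below the axis are not drawn, and none is a connexin.

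Marker genes of other cell types in the dissected tissue are set beside these values. All 13 probe sets of 6 skeletal muscle genes were lowest on replicate 3, though several of the 13 belong to the same gene, ckm.L. There log2 of the summed intensity of the muscle probe sets was 13.59, beside 15.22 and 15.34 on replicates 1 and 2. Both endothelial probe sets, of pecam1.L and tek.S, were highest on replicate 1 and lowest on replicate 3, with log2 sums of 9.16, 8.88 and 8.56 on replicates 1, 2 and 3. Of the 6 markers on each of these lists, 6 muscle genes and 2 endothelial genes have a probe set, with 10 of 13 and 2 of 2 probe sets called. Over all frog probe sets 63.1% were called, and 71.8% of those with 1 gene symbol. Red cell genes had log2 sums of 14.54, 14.40 and 14.66, cartilage and bone genes 17.02, 16.94 and 17.00, and Schwann cell genes 16.58, 16.64 and 16.65. Such sums mainly follow the probe sets with the highest intensity, as hba2.L alone had 14.37, 14.23 and 14.42 within the red cell list. A flat sum therefore does not show that the share of a cell type was the same in each pool. Single markers within flat sums differed more, as bglap.S, a bone matrix protein, had 9.54, 9.52 and 11.24 in replicates 1, 2 and 3. The globin gene hba1.S had 2.56, 3.50 and 7.75, on both sides of the threshold, and was not called. slc4a1.L, the anion exchanger of red cells, had 9.64, 10.05 and 10.93. The probe sets of bglap.S, hba1.S and slc4a1.L were thus highest on replicate 3. Other members of these lists went the other way. Of the 8 cartilage and bone probe sets 3 were lowest on replicate 3, among them col2a1.L at 14.94, 14.96 and 14.84 in replicates 1, 2 and 3. In the red cell list alas2.S was highest on replicate 1, at 10.51, 10.08 and 10.34. Pigment cell genes had log2 sums of 13.05, 13.51 and 13.69, and inner ear epithelium genes 15.82, 15.87 and 15.84. Of the inner ear epithelium list 7 of the 8 genes with a probe set had at least 1 called, including otos, otoa, gata3, sox2 and sox10, whereas pax8 had none. By probe set 16 of 19 were called (84.2%), and pax2-b at a mean of 2.18 was not. No share by gene was computed over all gene symbols. None of the 8 hair cell markers was matched to a probe set by symbol, so hair cells were not checked, and of the lens list only cryba1.L was detected. The part of these cell types in the connexin values was not tested, and in bulk tissue fewer cells of a type and less RNA per cell cannot be told apart.

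Genes that work with connexins at the junction were called at a share near that of annotated probe sets. Of a list of 19 gap junction partners 11 had a probe set, and 10 of these had at least 1 probe set called, with 22 of 28 probe sets called (78.6%) beside 63.1% of all frog probe sets and 71.8% of those with 1 gene symbol. The median of their means was 11.02. For the count by gene no like share was computed over all gene symbols. Of the scaffold proteins, tjp1.S, the zonula occludens protein that binds the tail of connexin43, was not called by its only probe set, at 2.45, 2.49 and 2.77 in replicates 1, 2 and 3. Its relative tjp3.L was detected by both probe sets, one of them at 10.43, 10.49 and 10.33, while tjp3.S was not. The drebrin gene dbn1 and the caveolin gene cav1 were called by all of their probe sets. The kinases src and prkca, which phosphorylate connexin43 in mammals, were called by all 3 probe sets, and csnk1d by 2 of 3. The adherens junction genes cdh1, cdh2, ctnnb1 and ctnna1, whose contacts precede the assembly of gap junctions, were called by 10 of 13 probe sets. The 3 pannexins, which form channels in single membranes, were not matched to a probe set.

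Genes of the potassium route that gap junctions are thought to serve were called at about the share of annotated probe sets. Of 15 genes 8 had a probe set and 7 of these had at least 1 probe set called. No share by gene was computed over all gene symbols. Of the 14 probe sets of these genes 10 were called (71.4%), beside 63.1% of all frog probe sets and 71.8% of those with 1 gene symbol. The median of their means was 10.85. The detection of kcne1.L rests on a single probe set near the threshold, at 4.79, 4.87 and 5.01 in replicates 1, 2 and 3. kcnq1.L had a probe set called at a mean of 10.60 and another not called at 2.43. kcnj10.L, a potassium channel of supporting cells and of the stria vascularis in mammals, had 10.93, 11.17 and 11.20 in replicates 1, 2 and 3, and their mean was 11.10 ± 0.15 (SD, n = 3; limma's adjusted p = 4.10e-07). Replicate 1, the highest array of most connexin probe sets, was the lowest array here. One probe set of atp1b3.S, a subunit of the sodium pump, had arrays on both sides of the threshold, at 3.70, 3.82 and 4.37, and was not called (limma's adjusted p = 0.905). The other probe sets of atp1b3 were called, with means of 13.42 to 14.14. kcnj16.S was the gene of this list with no probe set called, at a mean of 2.01 ± 0.04 (SD, n = 3).

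**Figure D4:**
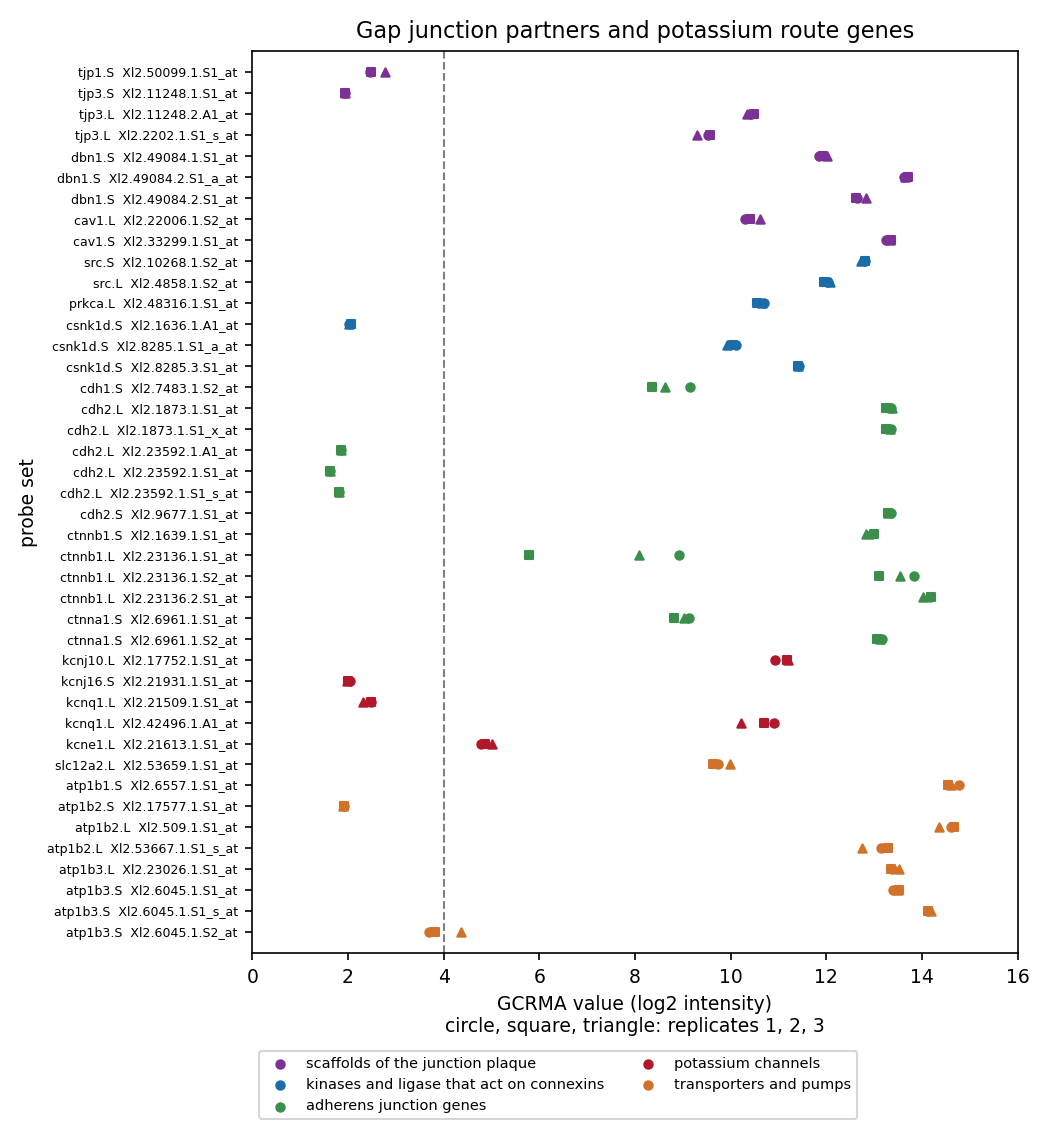
GCRMA values (log2 intensity, horizontal axis) of the 42 probe sets of the gap junction partner and potassium route lists, coloured by role, with a symbol for each replicate and a dashed line at 4. Most lie between 8 and 15, 1 probe set of atp1b3.S straddles the line, and several genes have probe sets on both sides of it.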

How the data were processed

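RNA from pooled larval inner ears was hybridized to Affymetrix GeneChip arrays of the second X. laevis design, with 3 arrays in 1 group. The authors deposited GCRMA values on the log2 scale, in which probe intensities had been corrected for background, normalized and combined into 1 value a probe set. The software used for GCRMA is not given in the sources used here. They range from 1.62 to 15.94. The 160 controls and reporters were left out. The arrays correlated at a Pearson's r of 0.994 to 0.996 across frog probe sets. Precision is limited by having 3 arrays. Symbols come from the platform annotation, where 15495 frog probe sets have 1 symbol, 279 several and 16701 none. RefSeq (v10.1) served for names and neighbouring genes only.

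A mean above 4 was tested for each probe set by limma 3.58.1 (R 4.3.3), one-sided, with eBayes and its trend option, and p-values were adjusted over 32475 frog probe sets by Benjamini and Hochberg's method. In simulated arrays of that size the test found 75.5% of the probe sets set to 4.5 and 97.5% of those set to 6. These shares are recoveries, and the share called among probe sets set to 4 is not given here. Confidence intervals are limma's. Tables were made in Python 3.11.15. Every connexin probe set is named. From the partner lists pannexins, tjp1, kcnj10 and genes with arrays on both sides of 4 were named by rule (an item of that rule is not reported here), and other examples after their values were seen. The connexins and the lists were chosen with earlier results of these data known. Alternatives changed the threshold, the normalization, the variance model, the probe sets fitted, the summary over arrays and the arrays used. No sequences of the probes or proteins were used here.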

Additional observations from a re-analysis of the deposited data

How the results depend on the processing

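No connexin result moved across the threshold under the alternatives run. Most of these alternatives could not have moved one. No connexin mean lay between 2.86 (gja4.S) and 7.96 (the second gja1.L probe set), so thresholds of 3 and 5 fall in this gap. No single array value lay between 3.09 and 7.71, so dropping an array or changing the summary could not change the count by mean at 4. The count of 6 connexin probe sets above 4 was the same with a threshold of 3 or 5, with arrays shifted to the same median, with quantile normalization, without the variance trend, among probe sets with 1 gene symbol only and without each replicate in turn (lowest 6, highest 6). The count by mean was also 6 when the median of the arrays or all 3 arrays had to reach the threshold. The potassium route list gave 11 called probe sets with a threshold of 3 and 9 with a threshold of 5, beside 10. The share called over all frog probe sets moved in the same direction, to 66.9% and 59.4%, beside 63.1%. Each of the 9 connexin probe sets kept its call in the 9 alternatives fitted for it. The arrays give 1 value per pool and no other tissue or condition for reference, so no level can be called high or low for the ear. No paired analysis was possible because all 3 arrays belong to 1 group.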

Other observations

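Which deposited probe set stands for a connexin OMIM gene depends on how the names are matched. The supplementary list of the study pairs connexin genes, among them GJA1, GJB2, GJB6 and GJC3, with probe sets of another naming. A deposited probe set was looked up either by GenBank accession or by probe set number. For the number, the prefix was rewritten to that of the deposited names and the ending was ignored. Whether numbers carry over between the namings was not checked. For GJA1 the accession leads to Xl2.1109.2.S1_a_at of gja1.L, with a mean GCRMA value of 7.96 ± 0.22 (SD, n = 3), and the number leads to Xl2.1109.1.S1_at of the same gene, with 12.88 ± 0.16 (SD, n = 3). For GJC3 both routes lead to probe sets annotated as gjc1.L. The accession leads to Xl2.3337.1.S1_a_at at 1.89 ± 0.0047 (SD, n = 3) and the number to Xl2.3337.1.S2_a_at at 11.13 ± 0.18 (SD, n = 3). The routes thus give opposite calls for GJC3, and this may reflect only the unchecked rewriting of the number. For GJB2 and GJB6, which are paired with the same probe set, neither route gave a deposited one. These matches were made after the values had been seen.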
